A study of Mus musculus with 12 samples.

Results

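Splicing factor genes and the Clk kinase genes were followed in nuclei and cytoplasms of growing mouse oocytes. Members were all rows whose symbols follow the naming of SR proteins (Srsf), SF3A and SF3B subunits (Sf3), core and specific snRNP proteins (Snrp), heterogeneous nuclear ribonucleoproteins (Hnrnp, with Hnrpdl and Hnrpll), U2AF subunits (U2af) and the kinases Clk1 to Clk4. They numbered 58 of 23235 rows: 11 Srsf, 4 Clk, 20 Hnrnp, 8 Sf3, 12 Snrp and 3 U2af genes. Of these, 57 reached 1 FPKM (fragments mapped to a transcript, scaled by its length and by the library's mapped fragments) in at least 3 of the 12 libraries and were tested among 13157 genes. Srsf12 alone did not, with 2.90 FPKM in WT nucleus 1 as its highest value, and it was listed at 0 in all 3 Mtr4-null cytoplasms.

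The oocytes came from day 14 and were either Mtr4-null or wild type (WT). MTR4 is a helicase that unwinds RNA for the exosome, a nuclear RNA-degrading machine. The 4 groups were Mtr4-null nuclei, WT nuclei, Mtr4-null cytoplasms and WT cytoplasms, with 3 libraries each and 10 nuclei or 10 cytoplasms, separated by micromanipulation, pooled in a library. The labels give neither the allele nor the Cre driver, and the design text speaks of duplicates where 3 libraries are labelled. Whether replicate libraries stem from different mice is not stated, so the spread behind each p-value may be technical. In pools of this kind, fewer cells of a type and less RNA per cell cannot be told apart.

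Pre-mRNA is spliced by small nuclear ribonucleoproteins (snRNPs) built on Sm proteins, with U2AF and SF3 proteins marking the end of the intron and the branch point. SR proteins bind exons and favour their inclusion, hnRNP proteins often oppose them, and CLK kinases phosphorylate SR proteins. Genes of SR proteins and CLK kinases are known for isoforms that retain an intron or carry an exon with an early stop codon: in cultured mouse cells, Clk1 and Clk4 transcripts with retained introns are held in the nucleus, while mRNAs with an early stop codon are degraded by nonsense-mediated decay.

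The libraries differed in ways that touch these genes. Skiv2l2, the symbol of Mtr4 in the table, had 7.98, 0.182 and 1.12 FPKM in the nuclei labelled Mtr4-null, against 6.06, 2.45 and 5.37 FPKM in WT nuclei, and 1.04, 0.315 and 0.700 FPKM in Mtr4-null cytoplasms, against 21.1, 19.4 and 20.2 FPKM in WT cytoplasms. The library labelled Mtr4-null nucleus 1 therefore goes against its label. Over the 57 members, the library labelled Mtr4-null nucleus 3 was the nucleus most like its cytoplasms: its rank correlation with their mean was 0.955, while that of the other nuclei lay between 0.697 and 0.822. Calls that involve these nuclei are also given without them, and nuclear shares are also given nucleus by nucleus. One small nuclear RNA, Scarna2, held between 58.0% and 81.7% of all summed FPKM in the nuclei and at most 5.13% in the cytoplasms, and the median mRNA was at 3.70 to 10.0 FPKM in nuclei and 10.3 to 11.8 FPKM in cytoplasms. Summed granulosa cell markers (18 genes) ranged from 34.3 to 122 FPKM in nuclei labelled Mtr4-null, 29.7 to 48.1 FPKM in WT nuclei, 94.7 to 140.2 FPKM in Mtr4-null cytoplasms and 123 to 141 FPKM in WT cytoplasms, while 5 of the 18 (Foxl2, Amhr2, Inha, Inhbb and Fst) were at 0 in all nuclei labelled Mtr4-null, Krt18 was at 0 in all cytoplasms and Lhcgr in all WT nuclei. Summed theca and stroma markers (9 genes) ranged from 1.06 to 4.08 FPKM in nuclei labelled Mtr4-null, were at 5.63, 37.0 and 3.96 FPKM in WT nuclei 1, 2 and 3, and reached at most 0.876 FPKM in Mtr4-null cytoplasms and 1.82 FPKM in WT cytoplasms; Lum was at 0 in all 3 libraries of every group but WT nuclei, as were Col1a2, Col3a1, Dcn and Acta2 in Mtr4-null cytoplasms. The 14 oocyte markers summed to at least 4207 FPKM in every library, and the 7 nuclear RNAs such as Malat1 to 136 to 360.0 FPKM in nuclei labelled Mtr4-null, 403 to 813 FPKM in WT nuclei and at most 10.65 FPKM in any cytoplasm. The part of these differences in the results was not tested.

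Because FPKM is a share of each library, a gene's place was read against the median mRNA (12118 protein-coding genes tested). The nuclear share is the mean nuclear FPKM as a percentage of the sum of mean nuclear and mean cytoplasmic FPKM, a share of FPKM and not of molecules. The median mRNA had a nuclear share of 35.7% in Mtr4-null oocytes (middle 50% of mRNAs: 31.5% to 43.3%) and of 31.7% in WT oocytes (24.6% to 47.0%). The 57 members as a whole sat near it, with medians of 35.4% in Mtr4-null and 32.45% in WT oocytes, and 28 and 30 of them above the median mRNA. The classes, however, were spread around it.

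Srsf genes stood above the median mRNA, with a median share of 41.4% in Mtr4-null and 38.9% in WT oocytes and with 9 of 10 and 7 of 10 genes above it. Clk genes had medians of 41.2% in Mtr4-null and 44.2% in WT oocytes, with 2 of 4 and 3 of 4 genes above. Hnrnp genes lay close to the median mRNA, at 36.65% in Mtr4-null and 34.4% in WT oocytes. Sf3 genes lay below it, at 31.9% in Mtr4-null and 25.75% in WT oocytes, with 2 of 8 genes above in each genotype. Snrp genes had medians of 32.3% in Mtr4-null and 29.96% in WT oocytes, and the 3 U2af genes of 33.1% in Mtr4-null and 26.2% in WT oocytes. Taken nucleus by nucleus, the Srsf and Clk medians exceeded the median mRNA in 6 of 6 nuclei, and the Sf3 median was below it in 6 of 6. In WT nuclei 1, 2 and 3, for example, the Srsf medians were 42.7%, 33.4% and 41.5% and the Sf3 medians 25.1%, 23.3% and 31.9%, where the median mRNA was at 33.1%, 25.96% and 34.2%. For the libraries labelled Mtr4-null nucleus 1, 2 and 3, the Srsf medians were 41.5%, 31.7% and 49.8% and the Sf3 medians 29.55%, 22.3% and 43.15%, where the median mRNA was at 31.4%, 23.45% and 46.1%. These class positions are a description, with no test over the class.

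**Figure D1:**
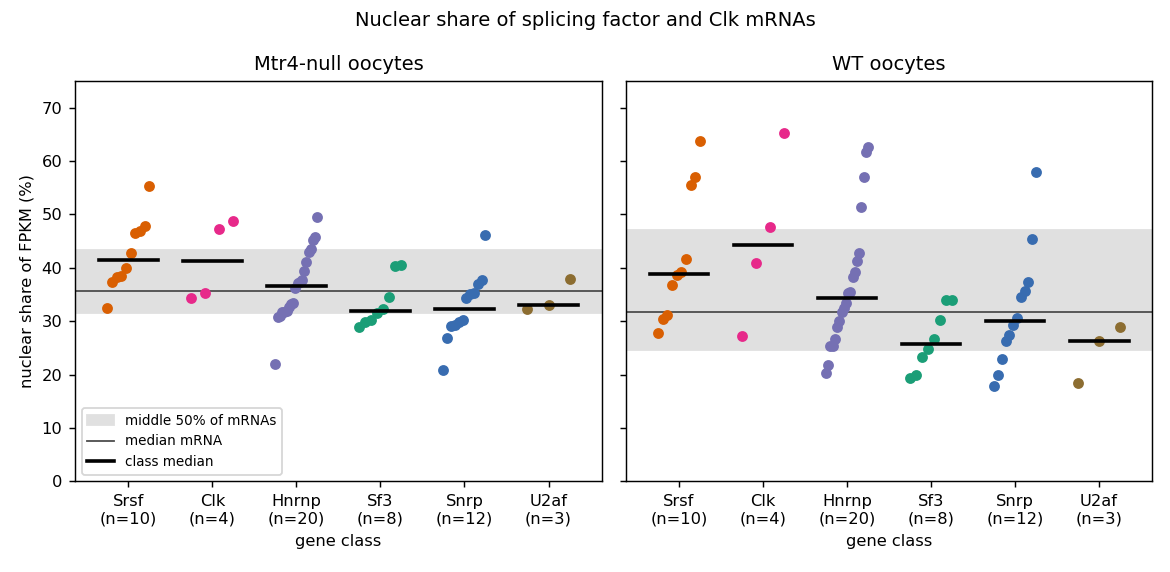
Nuclear share of FPKM in percent (vertical axis) of the 57 tested members by gene class (horizontal axis), in Mtr4-null oocytes on the left and WT oocytes on the right; each point is a gene, thick bars are class medians, the thin line is the median mRNA (35.7% in Mtr4-null, 31.7% in WT) and the grey band holds the middle 50% of mRNAs. In Mtr4-null oocytes 1 of 57 members lies above 50%, against 2067 of 12102 mRNAs with a share. In WT oocytes 9 of 57 members do, against 2709 of 12109 mRNAs.

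For the test, each library was scaled so that its median mRNA stood at the same level, and limma was run on log2(scaled FPKM + 1) over all genes, with calls at an adjusted p below 0.05. In WT oocytes 7 of 57 members were higher in the nucleus (12.3%), where 17.4% of all genes tested were, and 11 of 57 were lower (19.3%), where 18.3% of all genes were. Both shares are near those of genes at large. The members' median log2 ratio of nucleus over cytoplasm was −0.17, and that of all mRNAs was −0.23. The calls fell unevenly over the classes: 3 of 10 Srsf, 1 of 4 Clk, 2 of 20 Hnrnp and 1 of 12 Snrp genes were higher, while 3 of 8 Sf3, 3 of 12 Snrp, 3 of 20 Hnrnp and 2 of 3 U2af genes were lower. In this fit no Srsf or Clk gene was called lower, and no Sf3 or U2af gene was called higher. The calls depend on the scaling: on FPKM as deposited, where the median mRNA was lower in every nucleus than in any cytoplasm, 0 members were higher (12% of all genes) and 31 lower (54.4%, against 45%). The doubtful libraries enter these WT calls through the shared spread and the common scale: without the nuclei labelled Mtr4-null 1 and 3, 9 were higher (15.8%, against 22.2% of all genes) and 13 lower (22.8%, against 27.7%), with Hnrnph3 and Srsf5 added to the rises and Clk2 and Hnrnph2 to the falls. On the WT libraries alone 11 were higher (19.3%, against 21.1%) and 10 lower (17.5%, against 24.7%).

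**Figure D2:**
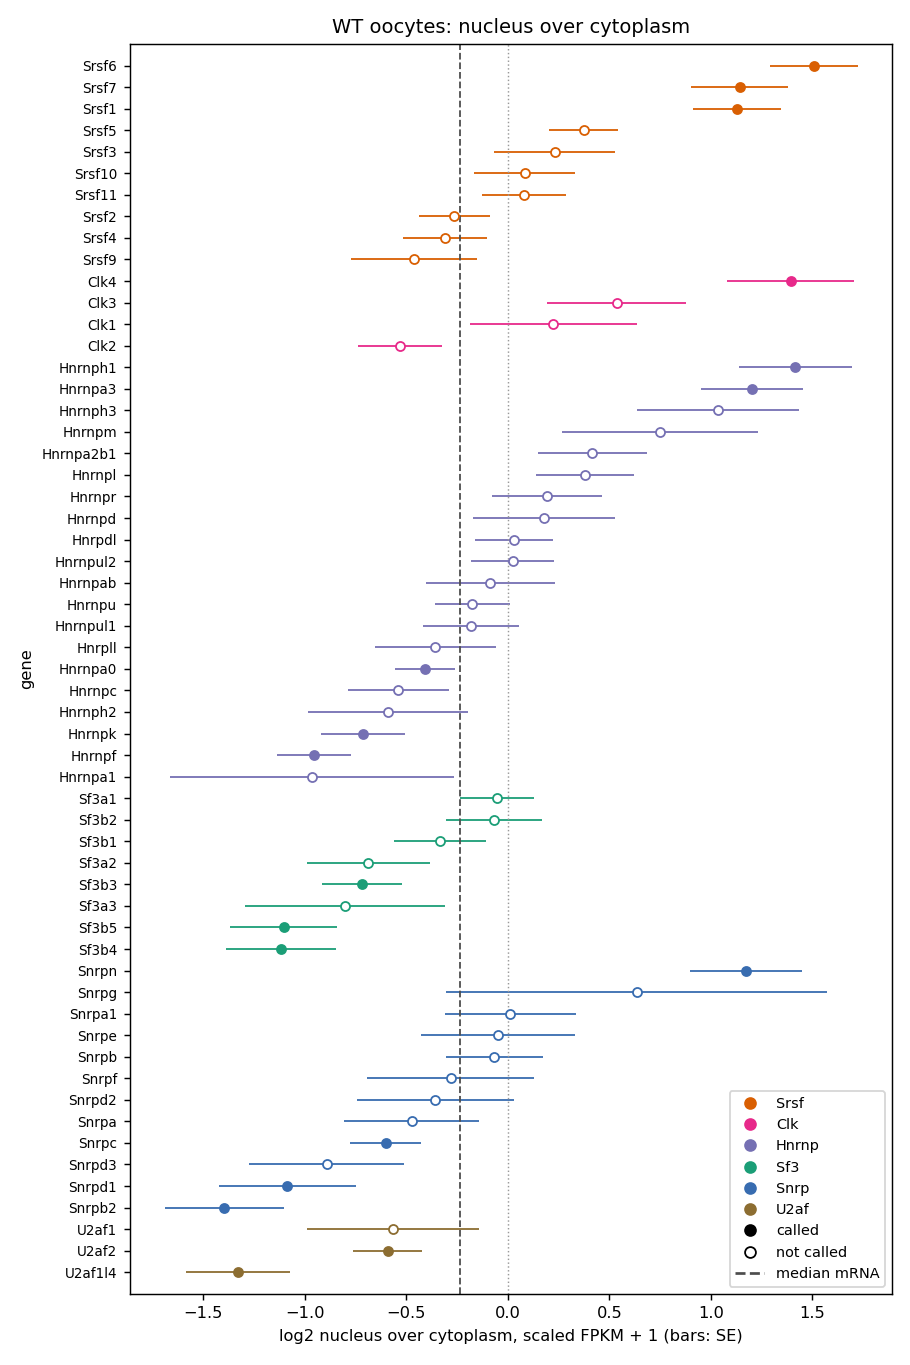
Log2 ratio of nucleus over cytoplasm in WT oocytes (horizontal axis, scaled FPKM + 1; bars are standard errors, n = 3 nuclei and 3 cytoplasms) for the 57 tested members, grouped by class; filled points passed an adjusted p of 0.05 and the dashed line is the median mRNA at −0.23. Srsf6 has the highest value at 1.51 and Snrpb2 the lowest at −1.40.

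Among SR proteins, Srsf6, Srsf7 and Srsf1 rose in the WT nucleus. Srsf6 had 20.1, 16.1 and 22.0 scaled FPKM in WT nuclei, against 6.44, 6.08 and 5.82 scaled FPKM in WT cytoplasms. Every nucleus was above every cytoplasm, as for 11 of the 57 members, while 17 lay below without overlap. The share of all genes without overlap was not taken. The log2 ratio of Srsf6 was 1.51 ± 0.22 (SE), with an adjusted p of 0.00037 in limma. Its nuclear share was 63.8%, in a range of 52.0% to 69.4% over the 3 nuclei, a level above 85.5% of mRNAs. Srsf7 had 25.03, 15.3 and 22.1 scaled FPKM in WT nuclei, against 10.47, 7.73 and 8.10 scaled FPKM in WT cytoplasms, without overlap (log2 1.14 ± 0.24, adjusted p = 0.0034). Srsf1, the founding SR protein, had 37.4, 30.1 and 32.8 scaled FPKM in WT nuclei, against 15.9, 14.9 and 13.4 scaled FPKM in WT cytoplasms, again without overlap (log2 1.13 ± 0.22, adjusted p = 0.0021). The 3 calls need the scaling: on FPKM as deposited the log2 ratios were 0.69 for Srsf6, 0.31 for Srsf7 and 0.27 for Srsf1, and none passed. Without the filter on low values Srsf7 and Srsf1 also missed the call, at 0.57 and 0.54 (adjusted p = 0.065 and 0.052).

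The other SR protein mRNAs passed no call in WT oocytes in the scaled fit over all 4 groups. The most abundant, Srsf2, had 43.8, 30.8 and 46.0 FPKM in WT nuclei and 94.2, 86.7 and 86.1 FPKM in WT cytoplasms, a nuclear share of 31.1% that was within 1 percentage point of the median mRNA. Srsf10 and Srsf4, next in cytoplasmic level, had nuclear shares of 38.7% and 30.5%, and Srsf9 had the lowest share of the class at 27.85%. Srsf5, with a share of 41.7%, had a log2 ratio of 0.37 ± 0.17 in that fit (adjusted p = 0.10 in limma). It was called higher on the WT libraries alone (log2 0.44 ± 0.15, adjusted p = 0.045). On FPKM as deposited its ratio was −0.49 without a call. Within a single family of proteins, then, WT shares ran between 27.85% and 63.8%.

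Nearly the whole Srsf class has an annotated isoform marked for decay. In GENCODE M21 (GRCm38), an isoform marked as a target of nonsense-mediated decay was annotated for 9 of 10 tested Srsf genes, 4 of 4 Clk genes and 3 of 3 U2af genes, but for 10 of 20 Hnrnp, 4 of 12 Snrp and 1 of 8 Sf3 genes; it was annotated for 28.1% of the mRNAs tested. The mark does not always go with an early end: the frame of Srsf2-202 has 666 bases with its stop codon, and the principal frame 663 without it. Frame ends of marked isoforms are shown for the SR protein genes that rose in the WT nucleus and for Srsf3, which did not. Such an isoform is the annotated feature that most of the class shares. Each is the last 30 coding bases of the decay isoform, 5′ to 3′ on the coding strand, with the early stop codon in capitals.
Srsf6-201: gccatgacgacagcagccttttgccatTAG
Srsf7-203: aggtttcttcgtttgagtcagtcgcctTGA
Srsf1-204: aagagatggattaagaatgctttggatTAA
Srsf3-201: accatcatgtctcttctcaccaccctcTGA

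In Srsf6, Srsf7 and Srsf3 the stop lies in an exon that is absent from the principal coding transcript. For Srsf6 it is an exon of 268 bases on chromosome 2 (162932815 to 162933082, plus strand), for Srsf7 one of 460 bases on chromosome 17 (80204622 to 80205081, minus strand) and for Srsf3 one of 456 bases on chromosome 17 (29039454 to 29039909, plus strand). The decay isoform of Srsf6 would thus read 408 coding bases in place of 1017. In Srsf1 the stop lies within an exon shared with the principal transcript, on chromosome 11 at position 88050013. The deposited values are per gene, so isoforms with and without such exons cannot be told apart. Srsf3, with the same kind of exon as Srsf6, had a log2 ratio of 0.23 ± 0.30 and no call. Whether these exons bear on the ratio of any gene was not tested. Over the whole set a decay isoform was annotated for 4 of 7 members called higher, 24 of 39 without a call and 3 of 11 called lower. The median log2 ratio was 0.012 over the 31 members with a decay isoform and −0.38 over the 26 without, where mRNAs with and without one had medians of −0.23 and −0.24.

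The 4 Clk kinase genes did not share 1 position. Clk4 rose in the WT nucleus: it had 15.0, 6.36 and 11.1 scaled FPKM in WT nuclei, against 3.485, 3.425 and 2.965 scaled FPKM in WT cytoplasms. The lowest nucleus was above the highest cytoplasm, the log2 ratio was 1.39 ± 0.31 with an adjusted p of 0.0052, and the nuclear share of 65.2% was the highest of all members tested. On FPKM as deposited the ratio was 0.64 without a call. In deposited units Clk4 was a weakly expressed gene, with 11.1, 3.31 and 8.84 FPKM in WT nuclei. A small RNA gene, Gm25082, lies on the same strand within the Clk4 locus (chromosome 11, 51261730 to 51281766, GRCm38) and BC049762 overlaps on the other strand, and strand use in counting is not given in the sources used here.

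Clk1 is the most abundant Clk mRNA in the cytoplasm. It had 44.7, 22.2 and 35.6 scaled FPKM in WT nuclei, against 28.7, 28.2 and 27.0 scaled FPKM in WT cytoplasms, so the nuclei lay on both sides of the cytoplasms (log2 0.22 ± 0.41, adjusted p = 0.69). Clk3 also overlapped, with 12.8, 23.0 and 39.8 scaled FPKM in WT nuclei and 16.5, 16.2 and 13.7 scaled FPKM in WT cytoplasms (log2 0.54 ± 0.34, adjusted p = 0.24). Clk2 was below its cytoplasms in every WT nucleus, at 7.77, 9.74 and 12.05 scaled FPKM in WT nuclei and 13.95, 15.5 and 14.05 scaled FPKM in WT cytoplasms, and missed the call (log2 −0.53 ± 0.21, adjusted p = 0.063). It was called lower without Mtr4-null nucleus 2 (log2 −0.53, adjusted p = 0.043), without the nuclei labelled Mtr4-null 1 and 3 (log2 −0.505, adjusted p = 0.044) and on FPKM as deposited (log2 −1.345, adjusted p = 0.0059). Ordered by WT nuclear share, the kinases ran Clk4 at 65.2%, Clk3 at 47.6%, Clk1 at 40.8% and Clk2 at 27.2%. The ranges over the 3 nuclei of Clk4 (44.4% to 72.9%), Clk3 (32.7% to 61.85%) and Clk1 (24.7% to 48.5%) overlapped, as did those of Clk1 and Clk2 (21.7% to 34.45%), while those of Clk4 and Clk2 did not.

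The frame ends of the annotated decay isoforms of Clk1 and Clk4, the kinases whose retained-intron transcripts are known from other mouse cells, are given in the same way.
Clk1-210: tcacacgggatgaaattgttgatacttTAG
Clk4-204: aagaggacactcatcccagtcactattTAG
Both stops lie in exons that the principal transcript also has (chromosome 1 at position 58419715, minus strand, and chromosome 11 at position 51271808, plus strand). The Clk1 isoform would read 408 coding bases in place of 1449, and the Clk4 isoform 240 in place of 1443. The annotation also lists 7 retained-intron isoforms for Clk1 and 7 for Clk4, against 4 each for Clk2 and Clk3.

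**Figure D3:**
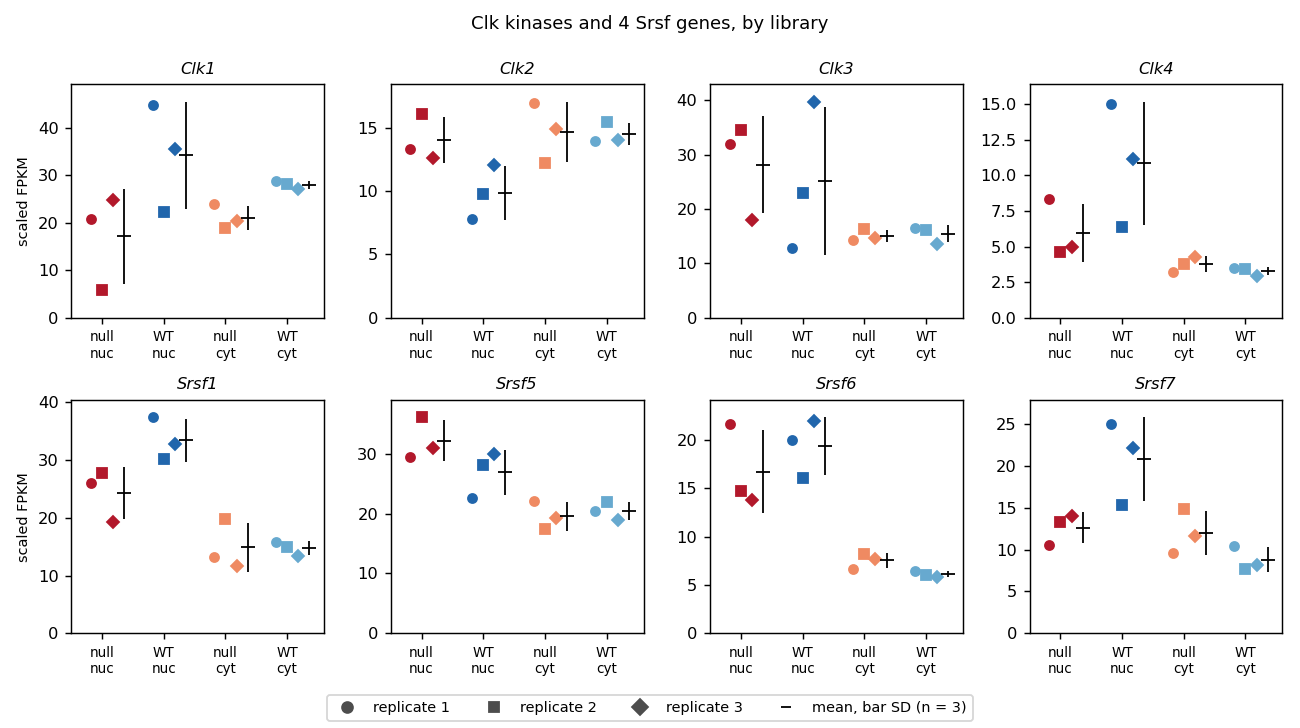
Scaled FPKM (vertical axes) of Clk1 to Clk4 and of Srsf1, Srsf5, Srsf6 and Srsf7 in every library; groups on the horizontal axes are nuclei labelled Mtr4-null, WT nuclei, Mtr4-null cytoplasms and WT cytoplasms ("null" is Mtr4-null, "nuc" nucleus, "cyt" cytoplasm), point shapes are replicates, and black marks are means with SD (n = 3). Srsf6 is above the cytoplasms in all nuclei of both genotypes, while Clk1 in the second nucleus labelled Mtr4-null, at 5.91, is below every other library.

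Hnrnp genes held both rises and falls. Hnrnph1, which binds G-rich tracts, had 46.25, 20.3 and 34.4 scaled FPKM in WT nuclei, against 12.9, 10.9 and 10.3 scaled FPKM in WT cytoplasms (log2 1.42 ± 0.28, adjusted p = 0.0025). Hnrnpa3 had 29.2, 25.6 and 26.2 scaled FPKM in WT nuclei, against 11.4, 12.05 and 10.1 scaled FPKM in WT cytoplasms (log2 1.20 ± 0.25, adjusted p = 0.0035). Neither gene's groups overlapped, and neither passed on FPKM as deposited (log2 0.57 for Hnrnph1 and 0.35 for Hnrnpa3); Hnrnpa3 also missed the call without the filter (log2 0.63, adjusted p = 0.067). Hnrnpf, a close relative of Hnrnph1 with the same kind of binding site, went the other way: it had 52.0, 44.1 and 38.4 scaled FPKM in WT nuclei, against 87.8, 87.6 and 86.5 scaled FPKM in WT cytoplasms (log2 −0.96 ± 0.18, adjusted p = 0.0020), a call that quantile normalization ended (log2 −0.49, adjusted p = 0.089). Hnrnpk, which binds C-rich RNA and had the highest cytoplasmic level of the class, also fell, with a log2 ratio of −0.71 ± 0.21 and an adjusted p of 0.019; without WT nucleus 2, WT cytoplasm 1 or WT cytoplasm 2 its adjusted p was 0.057 to 0.079, and it was −0.47 and −0.24 without a call with median-of-ratios scaling and quantile normalization. Hnrnpa0 was the weakest of these calls, at −0.41 ± 0.15 with an adjusted p of 0.048, and lost it with either of those scalings (log2 −0.18 and −0.12) and when any 1 of 9 libraries, each WT library among them, was left out (adjusted p 0.053 to 0.17).

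Hnrnpc, the U-tract binder and next after Hnrnpk and Hnrnpf in cytoplasmic level, had a log2 ratio of −0.54 ± 0.25 (adjusted p = 0.11). Hnrnpa1, the classical antagonist of SR proteins, had the lowest ratio of the class at −0.96 ± 0.70 and no call (adjusted p = 0.30). Its deposited values were 1.14, 3.84 and 2.37 FPKM in WT nuclei and 8.13, 11.1 and 9.485 FPKM in WT cytoplasms. Hnrnpa1 has many near-identical processed copies in the genome, and how reads of such copies were assigned is not given in the sources used here, so its level is uncertain.

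Every Sf3 and every U2af gene tested had a negative log2 ratio in WT oocytes. Only 4796 of 12118 mRNAs had a positive one, and the median mRNA was at −0.23. Sf3a1 and Sf3b2 lay above that median. Among SF3B subunits, Sf3b4 had 15.85, 26.8 and 12.6 scaled FPKM in WT nuclei, against 41.1, 37.9 and 38.6 scaled FPKM in WT cytoplasms (log2 −1.12 ± 0.27, adjusted p = 0.0080). Sf3b5, the smallest subunit, had 19.1, 36.8 and 32.3 scaled FPKM in WT nuclei, against 73.5, 60.4 and 54.1 scaled FPKM in WT cytoplasms (log2 −1.10 ± 0.26, adjusted p = 0.0071; −0.69 and 0.068 with quantile normalization). Sf3b3 also fell, by 0.72 on the log2 scale (adjusted p = 0.014), and without WT nucleus 2 or WT cytoplasm 2 its adjusted p was 0.052 or 0.062; with median-of-ratios scaling and quantile normalization the ratio was −0.48 and −0.32 without a call. Sf3b1, the subunit that contacts the branch point, had a ratio of −0.33 ± 0.23 without a call, and the highest ratios of the class, −0.05 for Sf3a1 and −0.07 for Sf3b2, did not pass (adjusted p 0.84 for each).

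U2af2, the subunit that binds the pyrimidine tract, had 60.6, 83.9 and 68.0 scaled FPKM in WT nuclei, against 109.6, 104.5 and 104.8 scaled FPKM in WT cytoplasms (log2 −0.59 ± 0.17, adjusted p = 0.018), and it lost the call without any 1 of 5 of the WT libraries (adjusted p 0.055 to 0.089) and with median-of-ratios scaling or quantile normalization (log2 −0.35 and −0.09). U2af1l4, a paralog of U2af1, was the most cytoplasmic of the 3: it had 19.6, 25.1 and 39.3 scaled FPKM in WT nuclei, against 67.4, 76.5 and 64.2 scaled FPKM in WT cytoplasms (log2 −1.33 ± 0.26, adjusted p = 0.0021). The U2af1l4 locus overlaps Gm49396 on its own strand and Psenen on the other, so reads of these genes may be shared. U2af1, which reads the end of the intron, had a ratio of −0.56 ± 0.42 and no call, and its WT nuclei ranged from 9.51 to 35.4 FPKM.

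Of the snRNP proteins, those that fell were Snrpb2 of the U2 snRNP, Snrpd1 of the Sm core and Snrpc of the U1 snRNP. Snrpb2 had 15.9, 5.71 and 9.14 scaled FPKM in WT nuclei, against 28.4, 28.5 and 23.2 scaled FPKM in WT cytoplasms, the largest fall of all members (log2 −1.40 ± 0.30, adjusted p = 0.0037). Snrpd1 had a log2 ratio of −1.09 ± 0.34 (adjusted p = 0.027) and Snrpc of −0.60 ± 0.18 (adjusted p = 0.019), and each lost the call without any 1 of 4 WT libraries (adjusted p 0.055 to 0.097). Median-of-ratios scaling ended both calls (log2 −0.86 for Snrpd1 and −0.37 for Snrpc), and quantile normalization that of Snrpc (log2 −0.24). Snrpn, a tissue-restricted form of the Sm protein SmB from an imprinted locus, rose: it had 10.6, 13.4 and 17.4 scaled FPKM in WT nuclei, against 6.10, 6.26 and 4.20 scaled FPKM in WT cytoplasms (log2 1.18 ± 0.28, adjusted p = 0.0065; 0.63 and 0.079 without the filter, and 0.37 and 0.40 on FPKM as deposited). The Snrpn transcript unit also holds Snurf, so the 2 cannot be separated at gene level. Snrpd2, the most abundant Snrp mRNA in WT cytoplasms, had a ratio of −0.36 ± 0.39 without a call. Snrpg had 62.55, 98.05 and 64.2 scaled FPKM in WT nuclei, against 48.3, 54.3 and 39.3 scaled FPKM in WT cytoplasms, without overlap. Its ratio of 0.63 ± 0.94 did not pass in the fit over all 4 groups, whose spread includes the nuclei labelled Mtr4-null, and it was called higher on the WT libraries alone (log2 0.70 ± 0.20, adjusted p = 0.024).

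Gene structure was compared across these calls. Of the 4 tested members with a single coding exon, Hnrnpa0, Hnrnpf and Sf3b5 were among the 11 called lower and Hnrnph2 had no call; Hnrnpa0 and Sf3b5 have no intron at all. None of the 7 members called higher had a single coding exon, and their median was 10 introns, against 8 among members without a call and 6 among those called lower. Over the 57 members the rank correlation of the WT log2 ratio with the number of introns was 0.215, where it was 0.0862 over 12058 mRNAs. With the number of annotated isoforms it was 0.287 over the members and −0.0279 over mRNAs. The strongest was with the mean FPKM in WT cytoplasms, at −0.515 over the members and −0.665 over mRNAs, and that level is also the denominator of the ratio. The 786 mRNAs with a single coding exon, whose median was 1 intron, had a median log2 ratio of −0.04. That is not below the −0.23 of all mRNAs, and the 4 members had a median of −0.77. Genes share libraries and are not independent, so these are descriptions.

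In Mtr4-null oocytes the same comparison gave few calls in the members and in the genome. Of 57 members, 2 were higher in the nucleus (3.51%), where 4.76% of all genes were, and 0 were lower, where 0.38% of all genes were. At an unadjusted p under 0.05 there were 11 of 57 members, against 2601 of 13157 genes tested. Srsf6 rose again: it had 21.7, 14.8 and 13.8 scaled FPKM in nuclei labelled Mtr4-null, against 6.705, 8.26 and 7.68 scaled FPKM in Mtr4-null cytoplasms (log2 1.03 ± 0.22, adjusted p = 0.016). Srsf5 was the other, with 29.5, 36.1 and 31.04 scaled FPKM in nuclei labelled Mtr4-null, against 22.15, 17.35 and 19.3 scaled FPKM in Mtr4-null cytoplasms (log2 0.69 ± 0.17, adjusted p = 0.038). For both genes all nuclei were above all cytoplasms, as they were for 6 of the 57 members, and the share over all genes was not taken. Srsf6 lost the call without Mtr4-null cytoplasm 1 or 3 (adjusted p 0.089 and 0.064), and Srsf5 without any of 7 single libraries: each WT cytoplasm, each Mtr4-null cytoplasm or Mtr4-null nucleus 2 (adjusted p 0.071 to 0.15). On the Mtr4-null libraries alone neither passed (adjusted p = 0.13 for Srsf6 and 0.18 for Srsf5), nor on FPKM as deposited, where the ratio was 0.19 for Srsf6 and −0.19 for Srsf5. Srsf5 also missed the call without the filter, scaled to the median of all tested genes and with the replicate block (adjusted p = 0.10, 0.055 and 0.070).

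These counts did not change without the library labelled Mtr4-null nucleus 1, where Srsf6 and Srsf5 were again the 2 higher (3.51%, against 4.32% of all genes) and 0 were lower (0.454% of all genes). Without the library labelled Mtr4-null nucleus 3, 4 members were higher (7.02%, against 9.54% of all genes) and 4 were lower (7.02%, against 6.04%). The additional rises were Srsf1 (log2 0.84, adjusted p = 0.027) and Hnrnph1 (log2 0.99, adjusted p = 0.049), and the falls were Snrpg, Hnrnpa1, Snrpb and Hnrnpf. Without the libraries labelled Mtr4-null nucleus 1 and 3, the nuclear side rested on 1 library, assumed to vary like the other groups, and 8 members were higher (14%, against 15.1% of all genes) and 9 lower (15.8%, against 15.5%). Srsf6, Srsf5, Srsf1 and Hnrnph1 were called higher in both of these fits. In the nucleus that then remains, Clk1 had 2.57 FPKM, against 33.25, 23.0 and 26.7 FPKM in Mtr4-null cytoplasms, Snrpg was listed at 0, and Hnrnpa1 was at 4.7e-05 FPKM.

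A gene's nuclear ratio was then compared between genotypes in the same model, as the difference of its log2 ratios in Mtr4-null and WT oocytes. No member passed, where 0.775% of all genes did. An unadjusted p under 0.05 was found for 8 of 57 members, against 2295 of 13157 genes tested. The smallest adjusted p of a member was 0.089. It belonged to U2af1l4, whose log2 ratio was 0.04 ± 0.26 in Mtr4-null oocytes and −1.33 ± 0.26 in WT oocytes, a difference of 1.38 ± 0.36. Without Mtr4-null nucleus 2 that difference was 1.56 (adjusted p = 0.037). For Srsf7 the ratio was 0.08 ± 0.24 in Mtr4-null and 1.14 ± 0.24 in WT oocytes (adjusted p of the difference 0.14), and for Clk4 it was 0.52 ± 0.31 in Mtr4-null and 1.39 ± 0.31 in WT oocytes (adjusted p 0.33). The SE of this difference ran from 0.21 for Hnrnpa0 to 1.33 for Snrpg. Differences well above their SE still missed the call, as for U2af1l4 and for Snrpb2 (1.33 ± 0.42, adjusted p = 0.14). At this replication, differences larger than the SE can therefore go undetected. Without the libraries labelled Mtr4-null nucleus 1 and 3, 5 members passed (8.77%, against 18.6% of all genes): Snrpg, Clk1 and Hnrnpd with lower, and Snrpb2 and Hnrnpu with higher nuclear ratios in Mtr4-null oocytes.

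Between genotypes in the nucleus, no member passed on FPKM as deposited, where 2.26% of all genes did. An unadjusted p under 0.05 was found for 7 of 57 members, against 2413 of 13157 genes tested. The smallest adjusted p of a member was 0.077, for Srsf9. Without the library labelled Mtr4-null nucleus 1, Srsf9 alone passed, as higher (1.75%, against 4.66% of all genes; log2 1.32, adjusted p = 0.041), and no member was lower (5.51% of all genes). Without the library labelled Mtr4-null nucleus 3, no member was higher (0.446% of all genes) and Hnrnpa1, Hnrnpa3 and Snrpg were lower (5.26%, against 2.52%; log2 −1.71, −1.245 and −4.08, adjusted p = 0.035, 0.040 and 0.014). The result also depended on scaling. With libraries scaled to the median mRNA, 5 members were higher in nuclei labelled Mtr4-null (8.77%, against 4.4% of all genes) and 3 were lower (5.26%, against 5.39%). Those higher were Hnrnpa0, Sf3b5, Snrpb2, Snrpc and Srsf9, and those lower were Hnrnpa3, Snrpg and Snrpn. Hnrnpa0 had 32.5, 32.5 and 33.4 scaled FPKM in nuclei labelled Mtr4-null, against 16.85, 18.15 and 20.97 scaled FPKM in WT nuclei (log2 0.79 ± 0.15, adjusted p = 0.011). Srsf9 had 29.3, 51.5 and 24.5 scaled FPKM in nuclei labelled Mtr4-null, against 11.8, 14.3 and 16.7 scaled FPKM in WT nuclei (log2 1.18 ± 0.31, adjusted p = 0.036). Snrpn had 7.055, 6.62 and 5.27 scaled FPKM in nuclei labelled Mtr4-null, against 10.6, 13.4 and 17.4 scaled FPKM in WT nuclei (log2 −1.001 ± 0.28, adjusted p = 0.042). For all 8 genes the 3 nuclei of each genotype did not overlap on the scaled values, from which they were also called. Of all 57 members, 8 lay above and 5 below without overlap, and the share over all genes was not taken. Left out in turn on the scaled values, the doubtful libraries moved these calls. Without the library labelled Mtr4-null nucleus 1, 6 members were higher, where 11.2% of all genes were, and 3 lower (5.26%, against 12.3%). Without the library labelled Mtr4-null nucleus 3, 3 were higher (5.26%, against 4.25%) and 2 lower (3.51%, against 4.79%). Without both, with 1 nucleus left, 9 were higher (15.8%, against 17.5%) and 6 lower, where 20.1% of all genes were. Hnrnpa0, Snrpb2 and Srsf9 were higher and Snrpg lower in all of these fits, and Hnrnpa3 passed in none of them (adjusted p 0.052 to 0.14). This comparison and that of nucleus against cytoplasm in WT oocytes share the WT nuclei.

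**Figure D4:**
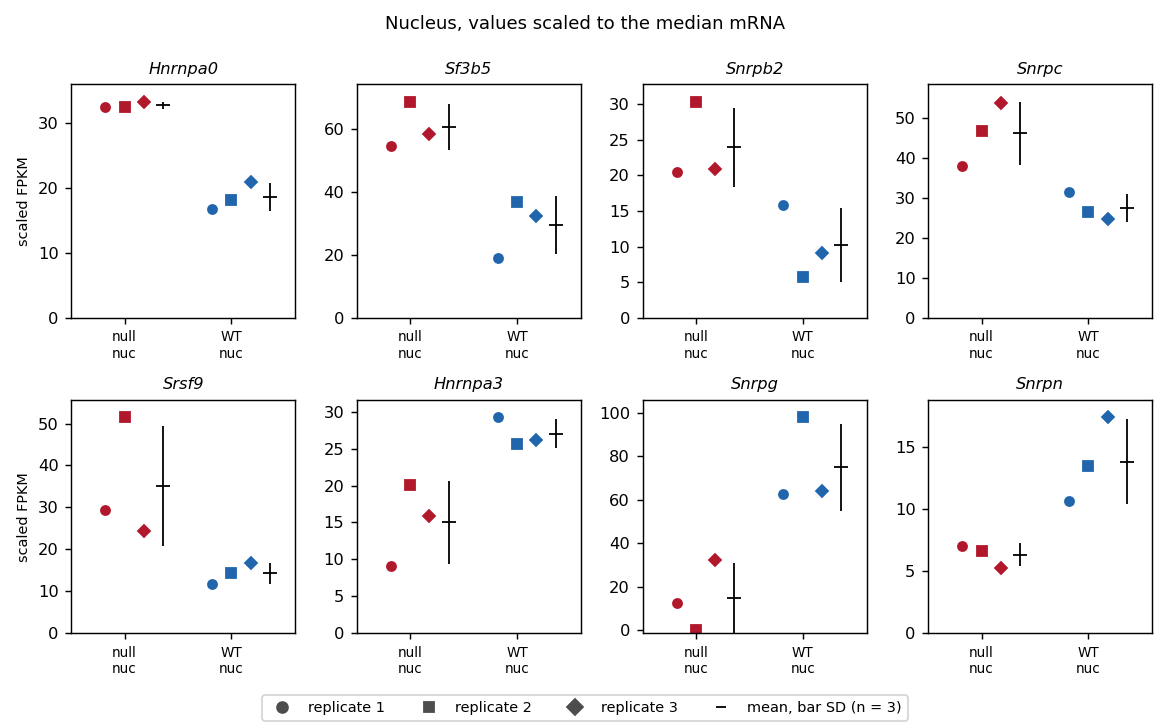
Scaled FPKM (vertical axes) in nuclei labelled Mtr4-null on the left and WT nuclei on the right of each panel, for the 8 members called between genotypes in the nucleus after scaling to the median mRNA; point shapes are replicates and black marks are means with SD (n = 3). Hnrnpa0 is at 32.5 to 33.4 in all nuclei labelled Mtr4-null, and Snrpg ranges from 0 to 32.05 there.

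Snrpg, a small Sm core protein, had the largest SE of the members between genotypes in the nucleus (log2 −2.85 ± 0.87 on FPKM as deposited). It had 7.86, 0 and 37.7 FPKM in nuclei labelled Mtr4-null, against 46.4, 51.0 and 51.0 FPKM in WT nuclei. Its annotated coding length is 228 bases. Hnrnpa1 showed a like spread, at 3.9e-05, 4.7e-05 and 8.49 FPKM in nuclei labelled Mtr4-null. Clk1 had 13.2, 2.57 and 29.3 FPKM in nuclei labelled Mtr4-null and 33.2, 11.6 and 28.3 FPKM in WT nuclei, and the groups overlapped (log2 −1.01 ± 0.59, adjusted p = 0.39). With only the library labelled Mtr4-null nucleus 2 kept, 14 members were lower (24.6%, against 25.6% of all genes) and 2 were higher (3.51%, against 5.1%), among them Clk1, Clk4 and Snrpg lower and Srsf9 and Hnrnpab higher. In that library the median mRNA was at 3.70 FPKM, the lowest of the 12.

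Both doubtful libraries are nuclei, so the genotypes were also compared in the cytoplasm. In the fit over all 4 groups no member passed, where 1.88% of all genes did. An unadjusted p under 0.05 was found for 1 of 57 members, against 1663 of 13157 genes tested. The smallest adjusted p of a member was 0.35. The spread in that fit is shared with the nuclei. Fitted on the 6 cytoplasms alone, 3 members were higher in Mtr4-null cytoplasms (5.26%, against 15.5% of all genes) and 3 were lower (5.26%, against 12.5%), and the rest passed no call. Hnrnpa0 had 51.5, 50.9 and 45.9 FPKM in Mtr4-null cytoplasms, against 33.5, 29.96 and 31.1 FPKM in WT cytoplasms (log2 0.63 ± 0.12, adjusted p = 0.0050). Hnrnph3 had 4.31, 3.205 and 3.54 FPKM in Mtr4-null cytoplasms, against 1.48, 1.496 and 1.39 FPKM in WT cytoplasms (log2 0.93 ± 0.17, adjusted p = 0.0054). Hnrpdl had 47.0, 42.5 and 39.0 FPKM in Mtr4-null cytoplasms, against 32.7, 31.3 and 30.5 FPKM in WT cytoplasms (log2 0.43 ± 0.12, adjusted p = 0.028).

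Those lower in Mtr4-null cytoplasms were Hnrnph2, Sf3b1 and U2af1l4. Hnrnph2 had 8.59, 5.96 and 7.895 FPKM in Mtr4-null cytoplasms, against 14.9, 13.4 and 13.85 FPKM in WT cytoplasms (log2 −0.84 ± 0.17, adjusted p = 0.0068). Sf3b1 had 45.1, 49.7 and 38.75 FPKM in Mtr4-null cytoplasms, against 72.5, 69.5 and 60.7 FPKM in WT cytoplasms (log2 −0.59 ± 0.13, adjusted p = 0.012). U2af1l4 had 67.9, 43.7 and 49.2 FPKM in Mtr4-null cytoplasms, against 87.4, 93.8 and 80.6 FPKM in WT cytoplasms (log2 −0.72 ± 0.17, adjusted p = 0.014). For all 6 genes the genotypes did not overlap on the values from which they were called. Among all 57 members, 6 lay above and 6 below without overlap, and the share over all genes was not taken. Hnrnph2 and Hnrnph3 are relatives within the H/F family and moved in opposite directions. Hnrnph2 is X-linked, at 134601179 to 134607060 of chromosome X (GRCm38).

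**Figure D5:**
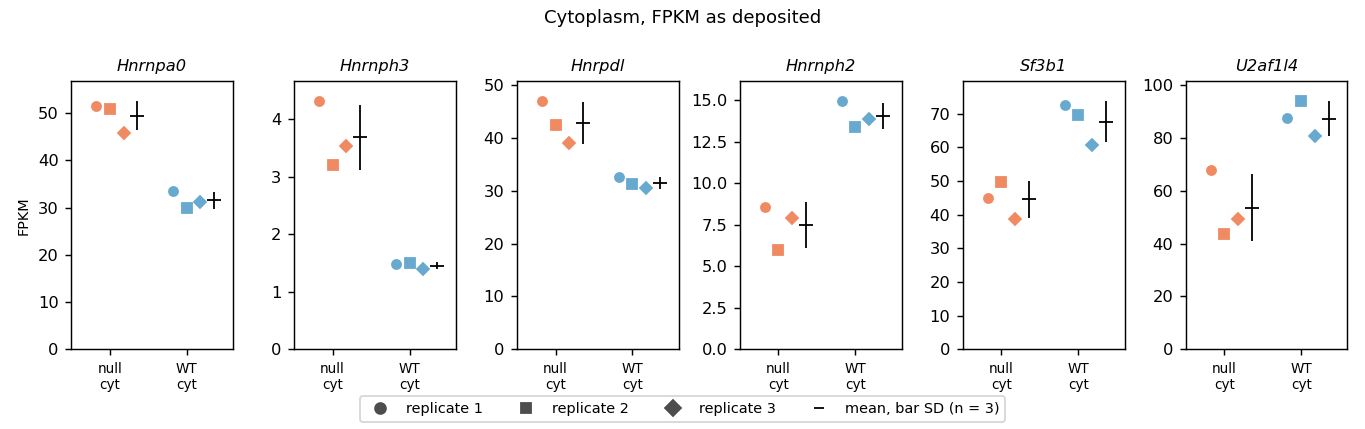
FPKM as deposited (vertical axes) in Mtr4-null cytoplasms on the left and WT cytoplasms on the right of each panel, for the 6 members called on the cytoplasms alone; point shapes are replicates and black marks are means with SD (n = 3). Hnrnpa0, Hnrnph3 and Hnrpdl are higher and Hnrnph2, Sf3b1 and U2af1l4 lower in every Mtr4-null cytoplasm than in any WT cytoplasm.

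No Clk or Srsf gene was called between genotypes in the cytoplasm in either fit. Clk1 had 33.25, 23.0 and 26.7 FPKM in Mtr4-null cytoplasms and 37.3, 34.6 and 33.9 FPKM in WT cytoplasms, without overlap but without a call. Its log2 ratio was −0.36 ± 0.59 (adjusted p = 0.94) over all 4 groups and −0.36 ± 0.15 (adjusted p = 0.11) on the cytoplasms alone. Clk3 ranged over 19.45 to 19.85 FPKM in Mtr4-null and 17.2 to 21.5 FPKM in WT cytoplasms. Summed over its 11 genes, the Srsf class made up 0.0787% ± 0.0082 (SD, n = 3) of all mRNA FPKM in Mtr4-null cytoplasms and 0.0684% ± 0.0037 in WT cytoplasms, and 0.0977% ± 0.018 in nuclei labelled Mtr4-null and 0.0987% ± 0.020 in WT nuclei. The Clk class made up 0.0191% ± 0.0020 in Mtr4-null cytoplasms and 0.0195% ± 0.00081 in WT cytoplasms, and 0.0223% ± 0.0052 in nuclei labelled Mtr4-null and 0.0320% ± 0.012 in WT nuclei. These sums overlapped between genotypes in the nucleus. All 58 members together made up between 0.442% and 0.629% of mRNA FPKM in any library.

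A wider list of 106 spliceosome and splicing genes outside these classes, of which 103 passed the filter, was tested alongside. In WT oocytes 12 were higher and 25 lower in the nucleus, which is 11.7% and 24.3% of the list, against 17.4% and 18.3% of all genes tested. The list's median log2 ratio was −0.31, against −0.23 over mRNAs. The largest rises were Cdc5l, a subunit of the activated spliceosome, and Zrsr1, an imprinted relative of U2af1. Cdc5l had 57.4, 30.4 and 39.5 FPKM in WT nuclei, against 4.07, 2.01 and 2.48 FPKM in WT cytoplasms (log2 4.28 ± 0.35 on scaled values, adjusted p = 6.2e-06). Cdc5l was also higher in Mtr4-null than in WT cytoplasms, with 15.2, 12.9 and 23.8 FPKM, against 4.07, 2.01 and 2.48 FPKM (log2 2.24 ± 0.47, adjusted p = 0.024). In this fit over all 4 groups, on FPKM as deposited, Cdc5l was the only one of the 103 called between genotypes in either compartment (0.971% in the cytoplasm, against 1.88% of all genes). For this list, the cytoplasms alone and nuclei scaled to the median mRNA were not looked at. The largest falls in the WT nucleus were Snrnp27 and Snrnp40 of the tri-snRNP and U5 particle, at −1.90 ± 0.65 and −1.53 ± 0.23 (adjusted p = 0.038 and 0.00050). In Mtr4-null oocytes 5 of the 103 were higher in the nucleus (4.85%, against 4.76% of all genes), Cdc5l and Zrsr1 with the largest ratios. None was lower, where 0.38% of all genes were. An unadjusted p under 0.05 was found for 16 of the 103, against 2601 of 13157 genes tested.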

How the data were processed

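Total RNA of 10 nuclei or 10 cytoplasms per library was sequenced in pairs of 150 bp after removal of ribosomal RNA, per the labels' protocols. The authors deposited FPKM per gene, made with TopHat2 2.1.1 and Cufflinks 2.2.1 on mm9, per the submitters' processing notes; no source used here gives the annotation, strand use or treatment of multiply mapping reads. FPKM carries no read counts, so depth is unknown and intervals from counts cannot be given; nuclear values rest on less RNA. FPKM is a share of a library, so abundant small RNAs can lower the values of mRNAs in nuclei. Their part in the lower nuclear values was not tested.

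Members and lists were chosen with earlier results of these data known. Genes that reached 1 FPKM in 3 or more of 12 libraries were tested with limma 3.58.1 (R 4.3.3; a mean per group, trended variances, two-sided, Benjamini-Hochberg over all genes tested) on log2(FPKM + 1), so changes of low genes are understated. Nucleus against cytoplasm used libraries scaled to an equal median mRNA; genotype comparisons used FPKM as deposited. Values after ± are standard errors for log2 ratios and SDs for sums. The steps were tested on simulated data. Symbols were matched to RefSeq gene types (20652 by symbol, 2329 by synonym, 254 unmatched); isoforms, coordinates and sequences are from GENCODE M21 (GRCm38), not the build of the deposited values, and were used only to describe genes. Tables and plots were made with Python 3.11.15, pandas 2.3.3 and matplotlib 3.10.9.

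Genes were named by rule: all Clk genes, the 3 most abundant and the 2 highest and 2 lowest ratios per class, called members (the 6 largest rises and falls where over 12 were called), members that failed the filter, and the 2 largest calls per direction of the wider list. Srsf1, Srsf3, Hnrnpa0, and the members named from alternative fits, fall outside it and were named after their values were seen. Other scalings, a pseudocount of 0.1, no filter, the replicate block and leaving out each library were tried.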

Additional observations from a re-analysis of the deposited data

How the results depend on the processing

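Scaling set the WT nuclear counts: of 57 members, 7 higher and 11 lower became 0 and 31 on unscaled FPKM, 3 and 28 without the filter (where the scaling median takes in mRNAs near 0), 5 lower with median-of-ratios scaling, 4 lower with quantile normalization and 11 higher on WT libraries alone. In Mtr4-null oocytes, 2 higher and 0 lower became 0 and 18 unscaled, 1 and 2 without the filter, 1 higher scaled to all tested genes, 0 higher on Mtr4-null libraries alone, and 8 and 9 without the nuclei labelled Mtr4-null 1 and 3. On unscaled FPKM the Mtr4-null ratios of Srsf5 and Clk4 reversed, to −0.19 and −0.21. Deviations of same-numbered libraries had correlations of −0.16 to 0.303, with 3 of 18 over 0.1. Those of nucleus with cytoplasm were 0.0583, 0.303 and 0.117 in Mtr4-null and −0.133, −0.0118 and −0.0424 in WT oocytes. They do not settle whether the replicate numbers pair libraries. With the replicate block 7 and 11 members were called in WT and 1 higher in Mtr4-null nuclei. In the cytoplasm 0 became 3 higher and 3 lower on cytoplasms alone, and 1 and 1 without the nuclei labelled Mtr4-null 1 and 3. In the nucleus 0 became 3 and 3 with median-of-ratios or quantile scaling, 5 and 3 scaled to the median mRNA, and 2 and 14 without those nuclei; scaled to the median mRNA, an alternative chosen after seeing the data, it gave 6 and 3 without nucleus 1, 3 and 2 without nucleus 3, and 9 and 6 without both. The difference between genotypes gave 1 call without the filter and 5 without those nuclei. Shares of all genes are not given for, among others, no filter, median-of-ratios or quantile scaling, the replicate block and most single-library omissions. Nor are they given for Mtr4-null oocytes on unscaled FPKM. There, the counts do not tell whether members moved or genes at large did. In WT oocytes 18.3% of all genes were lower in the nucleus as scaled and 45% on unscaled FPKM. The cause was not tested.

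Leaving out 1 library gave 7 to 8 higher and 5 to 12 lower in WT (5 without WT cytoplasm 2, 6 without WT cytoplasm 1), 0 to 4 higher and 0 to 4 lower in Mtr4-null, 0 in the cytoplasm, 0 to 1 higher and 0 to 3 lower in the nucleus, and 0 to 1 for the difference.

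Class medians less the median mRNA (log2) were, for Srsf in WT, 0.39; 0.47 with a pseudocount of 0.1, −0.15 without the filter, 0.74 with quantile normalization, 0.29 unscaled, and 0.29 to 0.48 leaving out 1 library. Clk in WT was 0.61 (−0.00277 without the filter; 0.40 to 0.76). Hnrnp in WT was 0.20 (−0.42 without the filter, 0.46 quantile, 0.066 unscaled; 0.098 to 0.34). Sf3 in WT was −0.47 (−1.07 without the filter, −0.18 quantile; −0.53 to −0.29). Snrp in WT was −0.08559 (−0.67 without the filter, 0.22 quantile; −0.21 to 0.039), and U2af −0.36 (−0.94 to −0.23). In Mtr4-null, Srsf was 0.47 (0.37 to 0.62), Clk 0.32 (0.10 without the filter; 0.21 to 0.45), Hnrnp 0.048 (−0.17 without the filter; −0.0049 to 0.11), Sf3 −0.17 (−0.41 without the filter, −0.05599 quantile, −0.30 unscaled, −0.092 without the nuclei labelled 1 and 3; −0.31 to −0.11), Snrp −0.10 (−0.33 without the filter; −0.20 to 0.011) and U2af −0.13 (−0.37 without the filter, 0.0081 quantile; −0.15 to −0.033). Of 788 gene values under alternatives, 662 kept their call and direction, 68 lost a call, 56 gained one and 2 reversed.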
